A study of Rattus norvegicus with 6 samples.

Results

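The genes described here were 10 transcription factors outside the AP-1 family that have been linked to the growth of injured axons: Sox11, Sox4, Klf4, Klf6, Klf7, Klf9, Smad1, Myc, Cebpd and Rest. They are listed by name, but the list was chosen with earlier results of these data known. The study had already reported Sox11 as upregulated in the CCI group, by RNA-seq and qRT-PCR. Shares of members given below are therefore not those of a list chosen blind to the values. Each gene was read from the row of the deposited gene table that carries its symbol, a protein-coding row first and then the row with the most counts. Rows were found for 9 of the 10 among the 43350 rows of the table. No row carried the symbol Sox4, so Sox4 was not analysed here. All 9 genes passed the filter on low values, a mean of at least 0.5 FPKM (fragments per kilobase of row length, scaled to library size) over the 6 libraries.

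Sensory neurons of the dorsal root ganglia (DRG) can regrow a cut or compressed peripheral axon, and they do so by switching on a set of transcription factors that drive growth genes. Sox11, Smad1, Klf6, Klf7, Myc and Cebpd have, among other roles, been described as promoting axon growth, whereas Klf4 and Klf9 restrain it and Rest silences neuronal genes. Klf factors of both kinds bind similar GC-rich DNA, so growth-promoting and growth-restraining members of the family can compete for the same sites.

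The libraries were made from ribosomal RNA-depleted total RNA of ipsilateral lumbar 4-6 DRG of male Sprague-Dawley rats, 3 in the CCI group (chronic constriction injury) and 3 in the sham group, all taken on day 11. Rats of the CCI group carried loose ligatures around the left sciatic nerve, and in sham rats the nerve was exposed but not ligated; the labels list no treatment for the sham rats and give no age for either group. The study's methods describe 1 rat per sample, while the labels' library text speaks of a pooled sample. Only males were used, and a ganglion holds neurons, glia, vessels and immune cells together, so that fewer cells of a type and less RNA per cell cannot be told apart. The total counts per library lay between 75423546 and 87615743, and 3 counts corresponded to 0.0342 to 0.0394 CPM (counts scaled to library size after TMM correction, the trimmed mean of M-values).

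The labels of the libraries were checked with 5 genes known to rise after nerve injury (Atf3, Jun, Sprr1a, Gal and Gap43). All 5 were higher in the CCI group. Their summed level was 620.3, 437 and 377 CPM in CCI 1, 2 and 3 and 179, 184 and 171 CPM in sham 1, 2 and 3. Of 10 neuron markers 0 were called by edgeR at the limits given next (2 were higher and 3 lower at an unadjusted p under 0.05 alone), and their summed level was 10579 to 11972 CPM in the CCI group and 11621 to 12659 CPM in the sham group. Sham 1 stood apart in skeletal muscle markers, with a summed level of 200.5 CPM against 8.05 to 32.8 CPM in the other 5 libraries. Its erythrocyte markers summed to 146.1 CPM, against 41.7 to 80.3 CPM in the other 5. Its neutrophil markers summed to 14.7 CPM, against 3.67 to 7.76 CPM.

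Sox11 and Klf7 were called higher after CCI at limits without adjustment, and no member was called lower. The call of Klf7 was lost in some alternative fits, as given with its values. A gene was called at the limits of the study, which ask for a log2 fold change of 0.58 or more, up or down, together with p under 0.05 before adjustment (here from edgeR's quasi-likelihood test, fitted over all rows). By these limits 2 of the 9 members were higher, beside 2.57% of the 26663 rows tested and 2.4% of the protein-coding rows. Of the 9 members 0 were lower by edgeR, DESeq2 or limma, beside 1.26% of all rows tested and 0.853% of the protein-coding rows by edgeR. In either direction 3.83% of all rows were called. At an unadjusted p under 0.05 alone, 4 members were higher (Sox11, Klf7, Smad1 and Klf6), beside 5.57% of all rows, and 0 were lower, beside 5.18%. Klf6 did not stay under 0.05 without some of the libraries, as given with its values. After Benjamini-Hochberg adjustment over all rows, 0 members passed 0.05 by edgeR, where 0.0938% of all rows did. By DESeq2, 3 members passed at an adjusted p under 0.05 (Sox11, Klf7 and Smad1), beside 3.07% of the rows with an adjusted p, and by limma 0 passed.

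In 6 of the 9 members every CCI library lay above every sham library, an arrangement that 8.63% of all rows showed, and in the other 3 the groups overlapped. The reverse arrangement, seen in 8.7% of all rows, was seen in 0 members. The 6 were the members described above as promoting axon growth (Sox11, Klf7, Klf6, Smad1, Cebpd and Myc), with a median log2 fold change of 0.57. The 3 that overlapped were Klf4, Klf9 and Rest, with a median of -0.06. The median over all 9 was 0.44, against 0.01 over all rows tested.

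**Figure D1:**
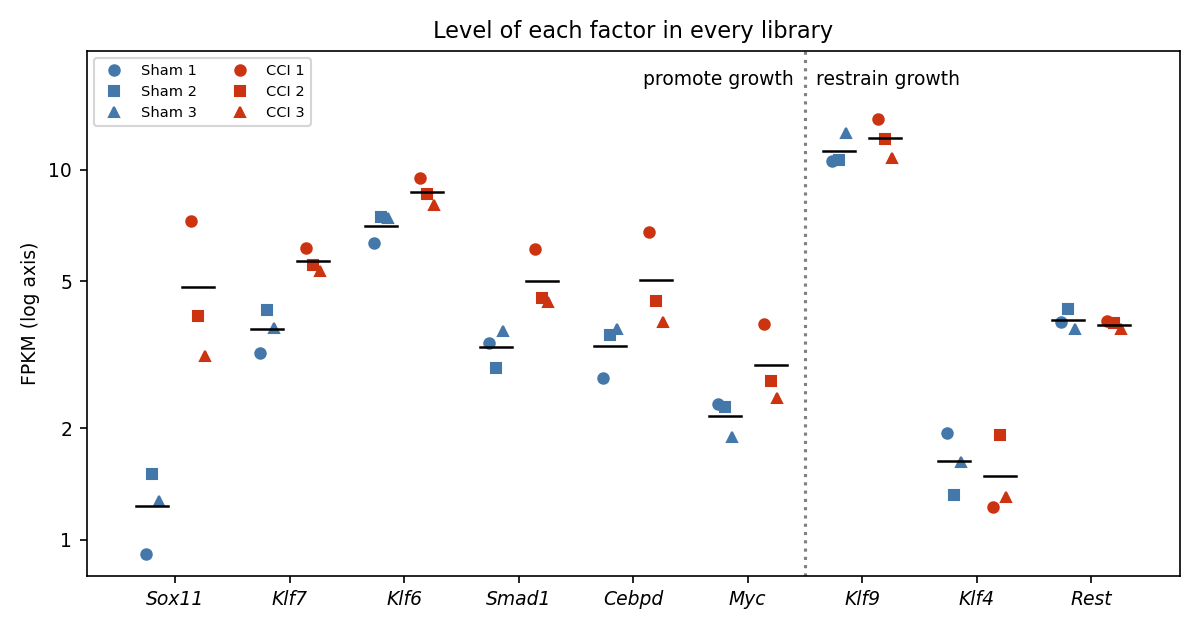
Level of the 9 factors in FPKM (log axis), with 1 point per library (sham in blue, CCI in red, the shape giving the replicate) and a black bar at each group mean. Red points lie above all blue points for the 6 factors on the left and overlap with them for Klf9, Klf4 and Rest on the right of the dotted line.

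**Figure D2:**
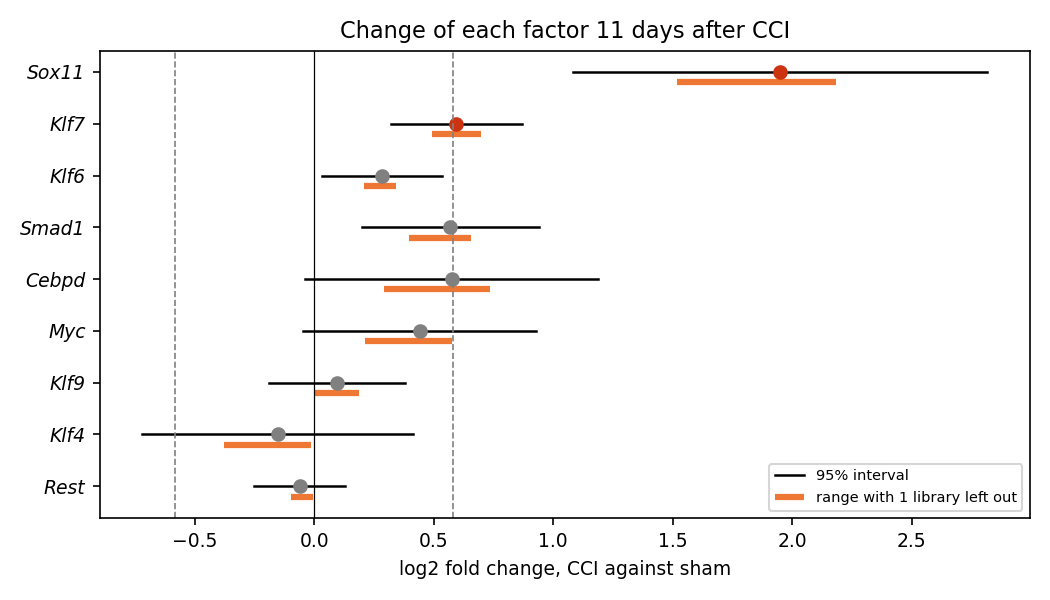
Log2 fold change of each factor, CCI against sham, as estimated by edgeR (point, red where called), with its 95% interval (black line) and the range over the 6 fits that each leave out 1 library (orange bar). Dashed lines mark 0.58 and -0.58, and only Sox11 keeps its whole orange bar, from 1.52 to 2.18, above 0.58.

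Sox11, a SoxC factor that acts in the growth and survival of developing and injured sensory neurons, showed the largest change of the 9. Its promoter is shown first, and it holds a match to an ATF/CRE motif. RefSeq start sites were found for 7 members, with windows from 250 bases before to 50 bases after the start in build GRCr8, which is not the build of the count table. The window of Sox11 is chr6:49738745-49739044 and that of Klf7, the other member called, is chr9:73020007-73020306. A stretch of 30 bases of the Klf6 window, chr17:69458592-69458621, is shown as the only other member window with such a match. All 3 genes lie on the minus strand, the sequences are written 5′ to 3′ in the direction of transcription, and capitals mark matches to an ATF/CRE motif (TGANGTCA) or a GC box (GGGCGG) on either strand.
Sox11: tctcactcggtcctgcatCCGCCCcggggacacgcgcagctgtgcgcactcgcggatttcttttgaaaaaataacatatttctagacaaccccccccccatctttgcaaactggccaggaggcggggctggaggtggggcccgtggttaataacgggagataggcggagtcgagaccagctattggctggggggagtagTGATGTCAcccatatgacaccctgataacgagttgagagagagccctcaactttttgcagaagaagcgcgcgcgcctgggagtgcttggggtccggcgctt
Klf7: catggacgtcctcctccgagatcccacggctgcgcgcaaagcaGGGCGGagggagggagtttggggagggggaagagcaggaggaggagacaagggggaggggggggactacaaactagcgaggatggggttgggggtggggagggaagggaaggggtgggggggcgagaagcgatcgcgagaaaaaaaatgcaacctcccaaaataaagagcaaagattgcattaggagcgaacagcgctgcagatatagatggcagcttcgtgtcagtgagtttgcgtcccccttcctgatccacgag
Klf6: ttggtgcgagcTGACATCAtcgtcgcgcag

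The ATF/CRE motif began 51 bases before the start of Sox11 (TGATGTCA) and 132 bases before the start of Klf6 (TGACATCA). It was present in 10.2% of all 33469 promoter windows of 300 bases. The Klf7 window had a GC box, the kind of sequence Klf factors bind, 207 bases before the start, as had 33.1% of all windows. The matches are descriptions of the letters and carry no measurement of binding.

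The Sox11 row used is a protein-coding row on the minus strand of chromosome 6, from 46629974 to 46631983 in the coordinates of the count table. It held 16.1, 8.86 and 6.89 CPM in CCI 1, 2 and 3 and 2.03, 3.36 and 2.86 CPM in sham 1, 2 and 3. The lowest CCI library was well above the highest sham library, and CCI 1 stood highest. The mean after CCI was 10.6 ± 4.84 CPM, against 2.75 ± 0.671 CPM after sham surgery (SD, n = 3 each). The log2 fold change was 1.95 (SE 0.36, 95% interval 1.08 to 2.82), a 3.86-fold higher level, with an unadjusted p of 0.00128 and an adjusted p of 0.142 by edgeR. Without CCI 1 the log2 fold change was 1.52, without Sham 1 it was 1.77, and Sox11 was called in every alternative fit.

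A second row named Sox11, listed without a strand, lay 1293 bases downstream of the first, from 46623972 to 46628681. Its levels were 39.9, 20.2 and 20.7 CPM in the CCI libraries and 5.70, 7.37 and 6.53 CPM in the sham libraries. The groups were again apart, and the log2 fold change of 2.04 (SE 0.29) was close to that of the coding row (edgeR, unadjusted p 0.000295, adjusted p 0.0935). The FPKM of the second row divided by that of the coding row was 1.11 ± 0.160 in the CCI group and 1.04 ± 0.143 in the sham group, a difference smaller than the spread between libraries (exact permutation test, two-sided, p = 0.6, the smallest possible p being 0.1). Both rows together held 56.0, 29.1 and 27.6 CPM in the CCI group and 7.73, 10.7 and 9.39 CPM in the sham group, a ratio of means of 4.05.

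Klf7, a zinc finger factor needed for sensory neuron development and able to promote axon growth, was the other member called. The row used lies on the minus strand of chromosome 9, from 70696049 to 70819516, and joins 9 assembled transcripts under Klf7 and a second symbol, AABR07067882. Its level was 462, 415 and 398 CPM in CCI 1, 2 and 3 and 239.9, 319 and 285 CPM in sham 1, 2 and 3. The lowest CCI library lay above the highest sham library, and Sham 1 was the lowest of the 6. The means were 425 ± 33.4 and 281 ± 39.6 CPM (SD, n = 3 each). The log2 fold change was 0.60 (SE 0.11, 95% interval 0.32 to 0.87), or 1.51-fold, with an unadjusted p of 0.00156 and an adjusted p of 0.151 by edgeR. The value lay just inside the limit of 0.58, and the call was lost without CCI 1 (0.53), without Sham 1 (0.49) and with limma (0.51).

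The length of the Klf7 row that its counts and FPKM imply was 68572 bases, against 1140 to 10893 bases for the rows of the other members. Its CPM therefore cannot be set beside those of other genes, nor can its FPKM, which is divided by that length, without reserve. Reads of other transcripts assembled within its span cannot be told apart from those of Klf7. A further Klf7 row on the minus strand inside the same span (70753368 to 70764354) did not differ between the groups beyond the spread. It held 55.6, 46.9 and 21.2 CPM in the CCI group and 35.8, 38.3 and 37.5 CPM in the sham group (edgeR, log2 fold change 0.15, SE 0.32, unadjusted p 0.664). A Klf7 row on the plus strand (70740579 to 70819516) was under the filter and was not tested. Its levels were 0.320, 9.41 and 0.0789 CPM in the CCI group and 41.8, 25.1 and 0.182 CPM in the sham group, so that libraries of both groups were near 0. An unnamed row on the plus strand, 46 bases beyond the end of the Klf7 row, held 57.1, 41.2 and 43.4 CPM in the CCI group and 36.4, 37.4 and 37.8 CPM in the sham group, with a log2 fold change of 0.34 (edgeR, unadjusted p 0.0326).

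**Figure D3:**
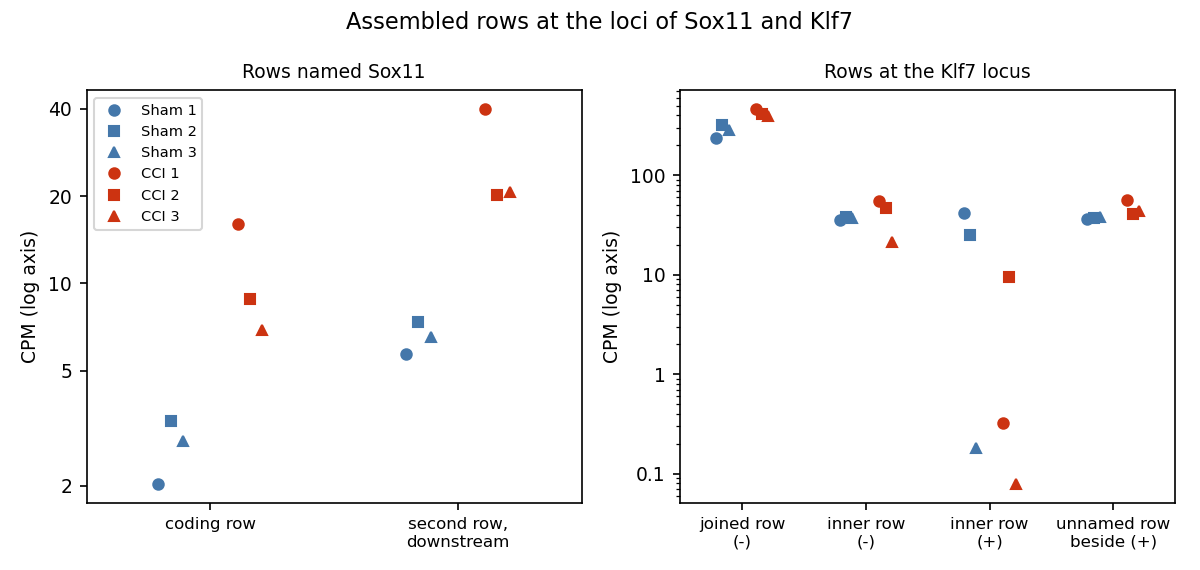
CPM (log axes) of the assembled rows at the loci of Sox11 (left) and Klf7 (right, with the strand of each row), 1 point per library, sham in blue and CCI in red. Both Sox11 rows hold the CCI libraries above the sham libraries, whereas at Klf7 the joined row and the unnamed row beside it do so and the 2 inner rows do not.

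Klf6, the growth-promoting factor most similar to Klf7, had CCI libraries above the sham libraries by a smaller margin. Its level was 29.8, 26.8 and 24.9 CPM in the CCI group and 19.9, 23.6 and 23.4 CPM in the sham group. The lowest CCI library exceeded the highest sham library by little, and Sham 1 was again the lowest. With means of 27.2 ± 2.46 and 22.3 ± 2.11 CPM the log2 fold change was 0.28 (SE 0.10, 95% interval 0.03 to 0.53), which is 1.22-fold and under the limit of 0.58 (edgeR, unadjusted p 0.0314, adjusted p 0.406). By edgeR the unadjusted p was above 0.05 without CCI 1 (0.0956, log2 fold change 0.21), without CCI 2 (0.0611, 0.30), without Sham 1 (0.0864, 0.21) and with the replicate number as a block (0.0776). The row lies on chromosome 17, from 67887939 to 67945037.

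Smad1, which carries bone morphogenetic protein (BMP) signals to the nucleus and supports regrowth of sensory axons, stood just outside the limits. It held 73.0, 53.5 and 52.2 CPM in the CCI group and 40.7, 35.3 and 44.4 CPM in the sham group. All CCI libraries were higher, and CCI 1 was well above the other two. The means were 59.5 ± 11.6 and 40.1 ± 4.60 CPM, with a log2 fold change of 0.57 (SE 0.15, 95% interval 0.20 to 0.94, 1.48-fold), an unadjusted p of 0.00866 and an adjusted p of 0.271 by edgeR. Smad1 passed both limits without CCI 2 (0.64), without CCI 3 (0.66), without Sham 1 (0.58) and without Sham 3 (0.65), and its log2 fold change was 0.40 without CCI 1. The row lies on the plus strand of chromosome 19, from 32188267 to 32248684.

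Cebpd encodes C/EBP delta, a leucine zipper factor of acute phase and inflammatory responses that has also been linked to sensory axon regrowth. Its levels were 8.51, 5.52 and 4.80 CPM in the CCI group and 3.42, 4.53 and 4.70 CPM in the sham group. CCI 3 exceeded Sham 3 by a small margin, so the groups were only just apart. The log2 fold change was 0.57 (SE 0.25, 95% interval -0.04 to 1.19), and the test was not passed (edgeR, unadjusted p 0.0616, adjusted p 0.497). Its value ran from 0.29 without CCI 1 to 0.74 without CCI 3, where Cebpd was called. The gene lies on chromosome 11, from 89008008 to 89009146.

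Myc, a regulator of cell growth and metabolism that can drive regrowth of adult neurons, held 11.3, 7.91 and 7.07 CPM in the CCI group and 6.88, 6.81 and 5.69 CPM in the sham group. CCI 1 was again the highest, and CCI 3 lay close to Sham 1. The log2 fold change was 0.44 (SE 0.20, 95% interval -0.05 to 0.93), with an unadjusted p of 0.0690 and an adjusted p of 0.515 by edgeR. Without CCI 1 it was 0.21. The gene lies on chromosome 7, from 102586313 to 102591240.

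The 3 members known to restrain axon growth or neuronal genes did not pass the test in either direction. Klf9, a glucocorticoid- and thyroid hormone-responsive repressor of axon growth, held 37.7, 33.1 and 29.4 CPM in the CCI group and 29.1, 29.6 and 35.0 CPM in the sham group. The groups overlapped, and the log2 fold change was 0.10 (95% interval -0.19 to 0.38, edgeR, unadjusted p 0.444). Klf4, a suppressor of axon growth in central neurons, held 3.19, 4.95 and 3.38 CPM in the CCI group and 5.05, 3.47 and 4.29 CPM in the sham group. No order of the groups was seen, and the interval around its log2 fold change of -0.15 ran from -0.72 to 0.41 (edgeR, unadjusted p 0.540), so that a change of the size called here could not be told from none. Rest, the repressor that keeps neuronal genes silent outside neurons, held 18.2, 17.8 and 17.1 CPM in the CCI group and 18.0, 19.8 and 17.5 CPM in the sham group. Its 6 libraries lay close together, and the log2 fold change of -0.06 had an interval from -0.25 to 0.13 (edgeR, unadjusted p 0.476), inside the limits for a call. Klf9 lies on chromosome 1 (240908483 to 240933198), Klf4 on chromosome 5 (72283313 to 72287669) and Rest on chromosome 14 (33134511 to 33164141).

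The balance of growth-promoting to growth-restraining Klf factors within each library was described by ratios of FPKM, chosen after the values of the genes were known. The FPKM of Klf7 is that of its joined row, so ratios with Klf7 can be compared between libraries but do not give relative amounts of mRNA. Klf7 over Klf9 was 0.448, 0.458 and 0.494 in the CCI group and 0.301, 0.393 and 0.297 in the sham group. All CCI libraries were above all sham libraries (means 0.467 ± 0.0245 and 0.331 ± 0.0544), which gives the smallest p that 3 against 3 libraries allow (exact permutation test, two-sided, p = 0.1, adjusted over 5 ratios 0.333). Klf6 over Klf9 was 0.717 ± 0.0261 in the CCI group and 0.629 ± 0.0610 in the sham group (exact permutation p = 0.2). Klf7 over Klf4 was 3.98 ± 1.06 against 2.37 ± 0.772 (exact permutation p = 0.2), and Klf6 over Klf4 was 6.12 ± 1.64 against 4.49 ± 1.19 (exact permutation p = 0.3). None of the ratios could be called different between the groups at this number of libraries.

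On a scale that accounts for length, Klf9 had the highest value of the 9 in both groups, with 12.2 ± 1.47 FPKM in the CCI group and 11.3 ± 1.11 FPKM in the sham group, followed by Klf6 with 8.71 ± 0.753 and 7.07 ± 0.620 FPKM. The FPKM of Klf7 is divided by the 68572 bases of its joined row, so the place of Klf7 in this order is uncertain. Libraries of Klf9 and Klf6 did not overlap within a group, nor did those of Klf6 and the next gene. In the sham group Sox11 was the lowest, at 1.23 ± 0.296 FPKM, below Klf4 (1.63 ± 0.312) with overlapping libraries. In the CCI group Sox11 reached 4.82 ± 2.18 FPKM, in a middle group with Klf7 (5.66 ± 0.423), Cebpd (5.04 ± 1.56), Smad1 (5.00 ± 0.958) and Rest (3.82 ± 0.0958), within which each gene overlapped with the next. Rest, next after Klf6 in the sham group at 3.94 ± 0.255 FPKM, overlapped there with Klf7 (3.71 ± 0.501), and Klf7 with Cebpd (3.34 ± 0.527) and Cebpd with Smad1 (3.33 ± 0.379). Myc, at 2.98 ± 0.757 and 2.17 ± 0.235 FPKM, overlapped with Rest in the CCI group and was below Smad1 without overlap in the sham group. Klf4 was the lowest in the CCI group at 1.48 ± 0.375 FPKM, without overlap with Myc.

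The spread within the CCI group followed 1 library. CCI 1 was the highest of the 6 libraries in 7 of the 9 members, where 20.1% of all rows had it highest, and the highest of the 3 CCI libraries in 8, where 35% of all rows did. The exceptions were Klf4, for which CCI 1 was the lowest of the 6, and Rest, for which Sham 2 was the highest. CCI 1 also had the highest summed level of the 5 injury genes. Other marker lists set it apart as well. Its fibroblast markers summed to 1057 CPM, against 1566 to 1735 CPM in the other 5 libraries, and its Schwann cell markers to 6673 CPM, the lowest of the 6, against 7331 to 9184 CPM. Its macrophage markers (151 CPM) and glucocorticoid-responsive genes (345 CPM) had the highest sums of the 6, against 83.2 to 138 CPM and 239.6 to 307 CPM. In the sham group, Sham 1 was the lowest of the 6 libraries for Sox11, Klf7, Klf6, Klf9 and Cebpd, and the highest for Klf4. It was neither for Smad1, Myc and Rest. The part of these differences between libraries in the members' levels was not tested.

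Other genes near the members were read to see whether the changes extended along the chromosome. Within 50 kb of Cebpd, Spidr, 785 bases away, had a log2 fold change of 0.15 (edgeR, unadjusted p 0.404), and beside Klf9, Smc5 had 0.05. Near Rest, Noa1, 10340 bases away, had -0.30 (edgeR, unadjusted p 0.0231), Polr2b -0.07 and an unnamed row 56 bases away 0.00. A further 3 unnamed rows near Klf7 had values of 0.33 to 0.72 with unadjusted p of 0.139 to 0.462 by edgeR. No tested row with another symbol lay within 50 kb of Sox11 or Klf7, so named neighbours could not answer the question at the called members. Beside Cebpd, Klf9 and Rest no such row was called. Klf6 had no other row in this window, and the rows beside Klf4, Smad1 and Myc were under the filter.

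The protein-coding gene most like Sox11 over the 6 libraries, by Pearson correlation of log2(CPM + 0.5), was Azin2 (r = 0.9996), a regulator of polyamine synthesis. Azin2 held 32.9, 26.0 and 23.6 CPM in the CCI group and 15.9, 18.5 and 17.5 CPM in the sham group, with a log2 fold change of 0.67. It followed the order of the libraries in Sox11, with CCI 1 highest and Sham 1 lowest, over a smaller range. The genes most like Klf7 were Dip2b (r = 0.999, log2 fold change 0.07) and the glycolytic enzyme Pgk1 (r = 0.995, log2 fold change 0.24). Correlations over 6 libraries that share 1 group difference are easily high: 241 of 13711 genes exceeded r = 0.95 with Sox11 and 103 with Klf7.

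The other genes of the families and pathways were taken from 7 lists that hold 89 genes, of which 86 had a row and 76 were tested. Of the 76, 2 were higher (Mycl and Bdnf) and 0 were lower at the limits of edgeR, with a median log2 fold change of 0.01. At an unadjusted p under 0.05 alone, 5 of the 76 were higher and 5 lower, with 0 at an adjusted p under 0.05 by edgeR, 0 by limma and 3 by DESeq2 (Bdnf, Chga and Stmn2). At the same limits of p and size DESeq2 called 3 of the list genes higher and 0 lower, and limma 1 higher and 0 lower.

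Among the 9 tested Sox genes other than the members, 0 were called, and the log2 fold changes lay between -0.23 and 0.35. The most abundant was Sox10, the factor of Schwann cells and satellite glia, with 9.36 FPKM over all libraries. Sox12, the remaining SoxC gene, singled out after its values were seen, held 5.37, 4.97 and 5.79 CPM in the CCI group and 5.75, 5.56 and 5.93 CPM in the sham group. Its libraries overlapped, and its log2 fold change was -0.10 (95% interval -0.39 to 0.20), an interval that does not reach that of Sox11. The 10 other Klf genes had values from -0.13 to 0.40 with 0 called, and Klf13 was the most abundant at 9.68 FPKM.

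In the BMP-Smad1 list 0 of 18 tested genes were called, with log2 fold changes between -0.44 and 0.39. Smad9, a second Smad that receives BMP signals, ran opposite to Smad1, with 28.5, 35.7 and 41.6 CPM in the CCI group and 46.8, 46.4 and 50.1 CPM in the sham group. All its CCI libraries were below the sham libraries, and the log2 fold change was -0.44 (SE 0.14, edgeR, unadjusted p 0.0163, adjusted p 0.330), short of the limit. Smad5, also activated by BMP receptors, had 0.08. Id3, a target of BMP signals and the most abundant gene of the list at 16.3 FPKM, had -0.15, and Smurf1, a ubiquitin ligase of Smad proteins, had 0.18 (edgeR, unadjusted p 0.0321). Smad5, Smad9 and Smurf1 were named after their values were seen.

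Among 4 tested C/EBP genes 0 were called. Cebpa, the member of the family with the largest difference, held 4.39, 3.56 and 3.23 CPM in the CCI group and 2.01, 2.96 and 1.04 CPM in the sham group, with a log2 fold change of 0.90 that missed the p limit (edgeR, unadjusted p 0.0513). Its groups did not overlap, but the sham libraries were widely spread. Cebpb, the inflammatory partner of Cebpd, had -0.14, and Cebpg was the most abundant at 10.7 FPKM. Cebpa and Cebpb were named after their values were seen.

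In the Myc-Max list 1 of 12 genes was called. Mycl, a Myc family gene of low level here, held 3.44, 2.94 and 2.66 CPM in the CCI group and 2.21, 1.65 and 1.77 CPM in the sham group. The groups did not overlap, with means of 3.01 ± 0.396 and 1.88 ± 0.294 CPM and a log2 fold change of 0.68 (SE 0.20, edgeR, unadjusted p 0.0117, adjusted p 0.300). The other 11 genes lay between -0.10 and 0.12, among them the most abundant, Mlx, at 15.3 FPKM.

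Of the 9 tested genes in the list of REST corepressors, which also holds Srrm4, 0 were called. The most abundant was the histone deacetylase gene Hdac2 at 25.8 FPKM. Srrm4, a neuronal splicing factor known to counter Rest, held 31.9, 19.9 and 18.3 CPM in the CCI group and 16.5, 15.4 and 16.1 CPM in the sham group, singled out after its values were seen. The CCI libraries were all higher, CCI 1 by far the most, and the log2 fold change was 0.55 (SE 0.21, edgeR, unadjusted p 0.0384), under the limit.

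Genes known as REST targets did not move in 1 direction. Of 14 tested, 1 was higher, Bdnf, which encodes a neurotrophin released by sensory neurons, and 0 were lower, with a median of -0.14. The study had already reported Bdnf as upregulated, by RNA-seq and qRT-PCR. Bdnf held 41.3, 33.8 and 30.1 CPM in the CCI group and 22.0, 22.1 and 19.1 CPM in the sham group. Its groups were well apart, with a log2 fold change of 0.73 (SE 0.13, edgeR, unadjusted p 0.0011, adjusted p 0.135). At an unadjusted p under 0.05 alone 2 were higher (Bdnf and Stmn2) and 4 were lower. Stmn2, a tubulin-binding protein of growing axons and the most abundant at 697 FPKM, had a log2 fold change of 0.33. The 4 lower were Chga (-0.52), a protein of secretory granules, Oprm1 (-0.43), the mu opioid receptor, Snap25 (-0.39) and Gria2 (-0.32), all short of the size limit and named after their values were seen.

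**Figure D4:**
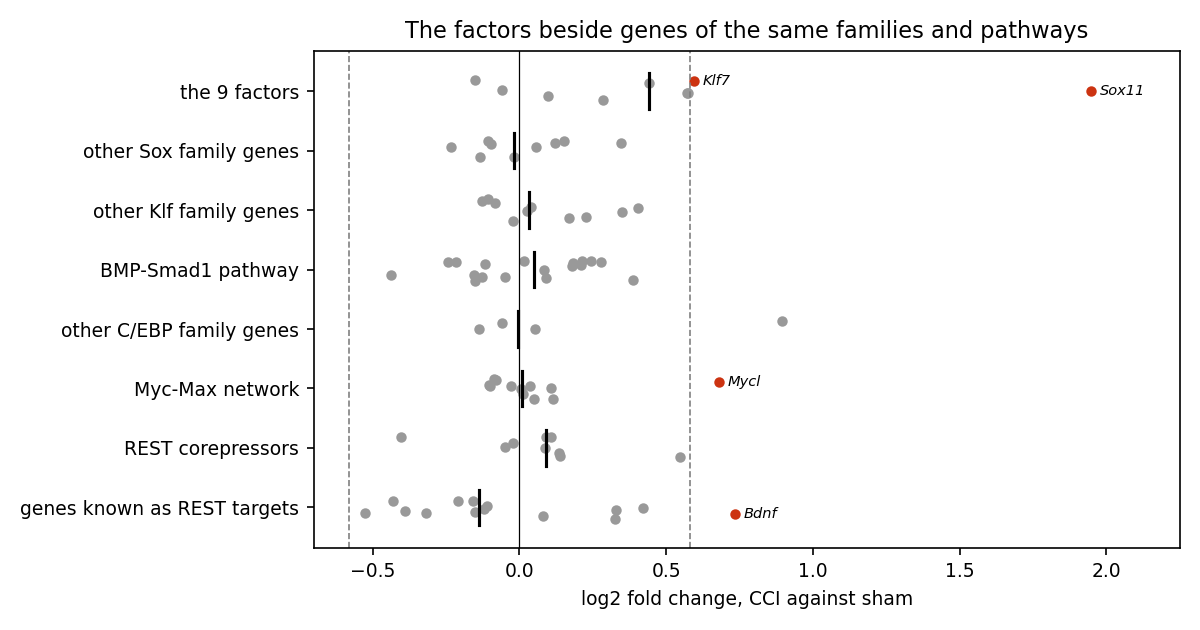
Log2 fold change, CCI against sham, of the 9 factors and of the 76 tested genes of the 7 lists, with 1 point per gene (red where called), a black bar at the median of each row and dashed lines at 0.58 and -0.58. The median of the 9 factors is 0.44, while that of each list lies between -0.14 and 0.09, with Mycl and Bdnf as the called genes.

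Markers of other cells and states were read beside these results. Of 9 macrophage markers 3 were higher (Cd68, Csf1r and Cx3cr1) and 0 lower, and the summed level of the 9 was 110.1 to 151 CPM in the CCI group and 83.2 to 107 CPM in the sham group. The study had already reported these 3 as upregulated, by RNA-seq and qRT-PCR. Log2 fold changes of the 9 ran from -0.003 (Cd163) to 1.11 (Cx3cr1), and 5 were higher at an unadjusted p under 0.05 alone by edgeR. Of 12 immediate early genes 2 were higher (Btg2 and Zfp36), with a summed level of 161 to 218 CPM against 134 to 149 CPM. Cebpd, Klf6 and Myc are also expressed by immune and glial cells and respond to handling and stress, and the part of these cells and states in their values was not tested. Of 8 glucocorticoid-responsive genes, read beside Klf9, 0 were higher and 1 was lower (Mt2A), and their summed level overlapped between the groups (249.6 to 345 CPM and 239.6 to 307 CPM). Satellite glia, Schwann cell, endothelial, mural cell, fibroblast, neutrophil, adipocyte, erythrocyte and proliferation markers had 0 genes called by edgeR (1 mural cell marker was higher at an unadjusted p under 0.05 alone), and T cell and B cell markers were all under the filter, with summed levels of at most 0.486 and 1.49 CPM. Of 6 tested skeletal muscle markers 5 were lower, with the summed level of Sham 1 given above. Without Sham 1 the log2 fold changes were 1.77 for Sox11 and 0.49 for Klf7.

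The promoter windows of the other members were scanned for the same motifs on both strands. The AP-1 motif (TGANTCA, in 7.33% of all windows) was found in Klf9, 122 bases before the start, and in Rest, 141 bases before. A STAT motif (TTCNNNGAA, in 8.87%) was found in Klf4 and Klf9, and a C/EBP motif (TTGCNNAA, in 10.6%) in Sox11, from base 4 after the start. An E-box (CACGTG, in 6.42%) was found in Klf6, 56 bases before the start. A GC box was found in Sox11, Klf6, Klf7, Smad1 and Rest, with 5 copies in Rest, whose window was 80.3% G and C against a median of 51.7% over all windows. No motif was found in both Sox11 and Klf7 that all other 5 windows lacked, since the GC box of both was also present in Klf6, Smad1 and Rest.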

How the data were processed

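RNA of ipsilateral DRG from 3 CCI and 3 sham rats was sequenced in paired-end, dUTP-marked libraries. The authors mapped reads with HISAT (HISAT2 2.0 in the submitters' processing notes) and assembled them with StringTie 1.3.0; whether strand was used in counting is not given in the sources used here, so reads of overlapping rows on opposite strands may be mixed. The deposited counts are whole reads per assembled row, without normalization. The deposited FPKM values, made by the authors, imply a library total 9.43% to 9.80% above the sum of the count column, for a reason not given. Rows without a symbol (6849) held 5.37% to 5.72% of the counts. Coordinates are those of the table (genome V101, as the study names it).

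Rows whose FPKM averaged at least 0.5 (26663) were tested with edgeR 4.0.16 (quasi-likelihood test, TMM, trended prior, R 4.3.3), with group as the only term, Benjamini-Hochberg adjustment over all rows and 95% intervals. The procedure was tested on simulated data. CPM are the deposited counts scaled to the TMM-corrected library size. The alternatives were RLE size factors, DESeq2 1.42.0, limma 3.58.1 on log2(FPKM + 1), no filter, a mean FPKM of at least 1, a replicate block, each library left out, and rows with a symbol only (added after seeing the data). All members are named. From the lists, called genes and the gene with the highest mean FPKM are named, as are, for each called member, the 2 genes with the highest Pearson r (1 of them, for Sox11, is not reported here), and tested rows within 50 kb. Members and lists were chosen with earlier results of these data known. Nothing in the labels shows that libraries are separate cultures or animals, so p-values measure the spread between these samples, which the study's methods describe as 1 rat each. Promoter sequences are from RefSeq, build GRCr8, matched by symbol for 7 members.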

Additional observations from a re-analysis of the deposited data

How the results depend on the processing

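Of 117 log2 fold changes of the 9 members over 13 alternatives, 109 kept their direction and their side of the limits, 3 lost a call, 5 gained one and 0 changed sign. With limma on log2(FPKM + 1), 1 member was higher in place of 2, as were 1 list gene in place of 2, 410 rows higher in place of 686 and 161 lower in place of 336. DESeq2 gave 3 members and 751 rows at an adjusted p under 0.05, in place of 0 members and 25 rows. A minimum mean FPKM of 1 left 1 list gene higher, since Mycl is below it. With only the rows that have a symbol (chosen after seeing the data), 20072 rows were tested in place of 26663. Of these, 482 were called higher and 214 lower. Leaving out 1 library at a time gave 1 to 4 members higher (1 without CCI 1, 4 without CCI 3), 1 to 3 list genes higher, 562 to 767 rows higher, 312 to 421 rows lower and 6 to 61 rows at an adjusted p under 0.05. The log2 difference of the ratio of both Sox11 rows was 0.09, reversed to -0.025 without CCI 3, and ran from there to 0.197. Causes of these shifts, other than those named, were not tested. Scalings moved the median log2 fold change of all rows by less than 0.02.

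Deviations from the group means gave no sign that the replicate numbers pair the libraries. They correlated at -0.01, -0.03 and -0.07 for libraries with the same number and at -0.02 to 0.05 for the others. Deviations cancel within a group, which constrains these values, so they cannot show whether libraries with the same number shared a batch. With the replicate number as a block, 0 rows passed an adjusted p of 0.05, 617 were called higher and 318 lower, Sox11 (1.87) and Klf7 (0.60) were called, and Klf6 had an unadjusted p of 0.0776 by edgeR.

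With 3 libraries a group, the intervals of Cebpd, Myc and Klf4 include both 0 and changes of 0.41 or more in size, which limits what can be said of them. Depth limits only rows of a few counts, and no member was among those.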
